A study of Mus musculus with 30 samples.

Results

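Nr1d1 and Nr1d2, which encode REV-ERBα and REV-ERBβ, and Rora and Rorb, which encode RORα and RORβ, were followed in the hypothalamus and the whole eye of mice with and without the clock gene Per3. Every probe that carries 1 of these 4 gene names in the hypothalamus array files was taken, and the eye was matched by probe name. That gave 10 of the 41174 probes that are not controls, 3 each for Nr1d1, Rora and Rorb and 1 for Nr1d2, measured on 30 arrays. Hypothalamus came from 8 wild-type (WT) and 8 Per3-/- (knockout) mice and whole eye from 7 WT and 7 knockout animals, each sample on an array of its own. All were adult males on the C57Bl/6J background, the WT mice being littermates, and both genotypes had gone through the same light regime of 3.5 h light and 3.5 h dark, with tissue taken in the light phase of cycle 17. In the knockout allele a PGK-NEO cassette stands in place of exon 3 and the intron after it. The hypothalamic sample was a block cut around the optic chiasm that includes the suprachiasmatic nucleus and its neighbours, and the eye was taken whole, so each value is a mean over many cell types at a single time of sampling.

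REV-ERBs and RORs are nuclear receptors that bind the same short DNA element. REV-ERBs, which bind heme, repress genes that carry it and RORs activate them, and their competition on the Arntl (Bmal1) promoter forms the second loop of the circadian clock. In the brain Rora is known from the thalamus and cerebellum and Rorb from sensory relays, and in the retina Rorb is needed for rod and amacrine cell fate while Rora acts in cones.

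The probes are 60 bases long and sample different stretches of each transcript, which matters below because probes of 1 gene did not always move together. Positions are on mm9. For Nr1d1, A_51_P223776 lies at chr11:98630526-98631028 on the minus strand, a stretch longer than the probe because it crosses an exon junction, and begins at base 1919 of the transcript. A_52_P130952 lies at chr11:98633332-98633391, from base 582, and A_52_P130961 at chr11:98636435-98636494, from base 62. Nr1d1 lies tail to tail with Thra, the gene of a thyroid hormone receptor on the opposite strand. The Nr1d2 probe, A_52_P303891, lies at chr14:19037253-19037312 on the minus strand, from base 3897. For Rora, on the plus strand, A_52_P652442 lies at chr9:69226611-69226670 and A_51_P477779 at chr9:69226711-69226770, from bases 1419 and 1519 of 1 transcript, and A_52_P652950 lies at chr9:69233105-69233164, from base 7929 of another transcript model. For Rorb, on the minus strand, A_52_P662179 lies at chr19:19011714-19011773 from base 2614, A_52_P74320 at chr19:19031726-19031785 from base 1569, and A_51_P388490 at chr19:19050603-19050662 from base 2144 of a separate cDNA. The sequences below, of probes in coding parts, show which piece of each message the contrasting values come from. They are read from the array files, 5′ to 3′, and the capitals in A_51_P477779 mark the stop codon of Rora.
Nr1d1 A_51_P223776: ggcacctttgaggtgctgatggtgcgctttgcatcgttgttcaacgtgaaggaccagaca
Nr1d1 A_52_P130952: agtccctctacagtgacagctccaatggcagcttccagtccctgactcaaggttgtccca
Rora A_52_P652442: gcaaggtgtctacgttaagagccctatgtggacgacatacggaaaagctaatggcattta
Rora A_51_P477779: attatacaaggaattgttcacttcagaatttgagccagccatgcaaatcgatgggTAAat
Rorb A_52_P74320: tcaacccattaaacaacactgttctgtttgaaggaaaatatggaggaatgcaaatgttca

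A level here is a background-subtracted intensity on the log2 scale, taken relative to the 75th percentile of all probes on its array, so 0 is the 75th percentile of that array and a difference of 1 is a 2-fold difference. Levels of different probes are not comparable, since each binds with its own efficiency. All 10 probes were well above background, by the mark the scanner software sets, on every array, and none was saturated. Across arrays 68.0% to 75.6% of probes were well above background in the hypothalamus and 71.4% to 80.7% in the eye. Of the defining markers, Pmch (melanin-concentrating hormone) was well above background on 16 of 16 hypothalamus arrays and 0 of 14 eye arrays, while all 8 hypothalamus markers were higher in the hypothalamus and all 6 photoreceptor markers higher in the eye. The mean of the pituitary markers stood at 6.82 in the hypothalamus of knockout replicate 1 and at 1.75 in that of WT replicate 5, against -4.30 to -2.43 in the others. That of the choroid plexus markers also varied widely in the hypothalamus, from -3.79 to 1.25 in WT and from -3.52 to 1.65 in knockout mice. No alternative left arrays out by the choroid plexus markers. The Per3 probe begins at base 4401 of its transcript, outside the replaced exon, and so does not check the labels. Its level in the hypothalamus was -3.79 to -3.28 in WT and -4.21 to -3.59 in knockout mice, and in the eye -3.55 to -2.57 and -4.12 to -2.90, with ranges that overlapped.

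None of the receptors passed the test for a difference between genotypes in the hypothalamus. At an adjusted p under 0.05 in limma (Benjamini-Hochberg over all 41174 probes), 0 of 10 probes were called, where 0.0413% of all probes were (17 probes), and the lowest adjusted p of the 10 was 0.991. One probe had an unadjusted p under 0.05, against 2.82% of all probes. In direction, 9 of the 10 had the lower mean in knockout mice, beside 56.1% of all probes. The median difference was -0.07 over the 10 and -0.01 over all probes. The 10 probes belong to 4 genes on the same arrays, so such counts are not of independent values, here or in the eye.

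Among the repressors, Nr1d1 had the lower mean in knockout hypothalamus at all 3 probes. The reported probe, A_51_P223776, the one with the highest mean signal, had a lowest, median and highest level of -1.03, -0.80 and -0.60 in WT and -1.41, -1.0 and -0.74 in knockout mice, with 4 knockout mice lower than all WT mice and 4 within the WT range. The difference was -0.17 (SE 0.095, n = 8 and 8), with a 95% interval of -0.38 to 0.03 and an exact permutation p of 0.0926 (two-sided). Permuting genotypes within slides gave an exact p of 0.0556. Without the arrays high in pituitary markers, an alternative added after the data were seen, the difference was -0.24. Those arrays held the highest knockout value (-0.74) and the lowest WT value (-1.03) of this probe, so leaving them out had to enlarge the difference. At A_52_P130952 levels ran from -3.28 through -3.08 to -2.87 in WT and from -3.38 through -3.23 to -3.02 in knockout mice, and 3 knockout mice lay below every WT mouse. This was the probe with an unadjusted p under 0.05. Its difference was -0.13 (SE 0.062, exact permutation p 0.0457, and 0.0309 within slides), the knockout mean was lower on 3 of 4 slides, and the adjusted p was 0.991. At A_52_P130961 the difference was -0.03, between -4.05 ± 0.30 in WT and -4.08 ± 0.38 in knockout mice (SD, n = 8 each).

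Nr1d2 was nearly level between genotypes in the hypothalamus. Its lowest, median and highest values were 1.09, 1.18 and 1.28 in WT and 1.05, 1.16 and 1.35 in knockout mice, the WT range lying within the knockout range. The difference of -0.02 had a 95% interval of -0.12 to 0.08 (exact permutation p 0.713), the narrowest interval among the 10 probes in this tissue.

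The activators had slightly lower means in knockout hypothalamus at 5 of their 6 probes. Rora at A_52_P652442 read 2.40, 2.65 and 2.69 (lowest, median, highest) in WT and 2.14, 2.44 and 2.82 in knockout mice, so the knockout mice spread to both sides of the WT mice. The difference was -0.11 (95% interval -0.30 to 0.07, exact permutation p 0.233), with the lower knockout mean on 4 of 4 slides. The other Rora probes differed by -0.09 and -0.06. Rorb at A_52_P662179 read 0.19, 0.24 and 0.40 in WT and -0.07, 0.18 and 0.33 in knockout mice, a difference of -0.09 (exact permutation p 0.0909) in which the groups overlapped. Its other probes differed by -0.05 and 0.02.

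**Figure D1:**
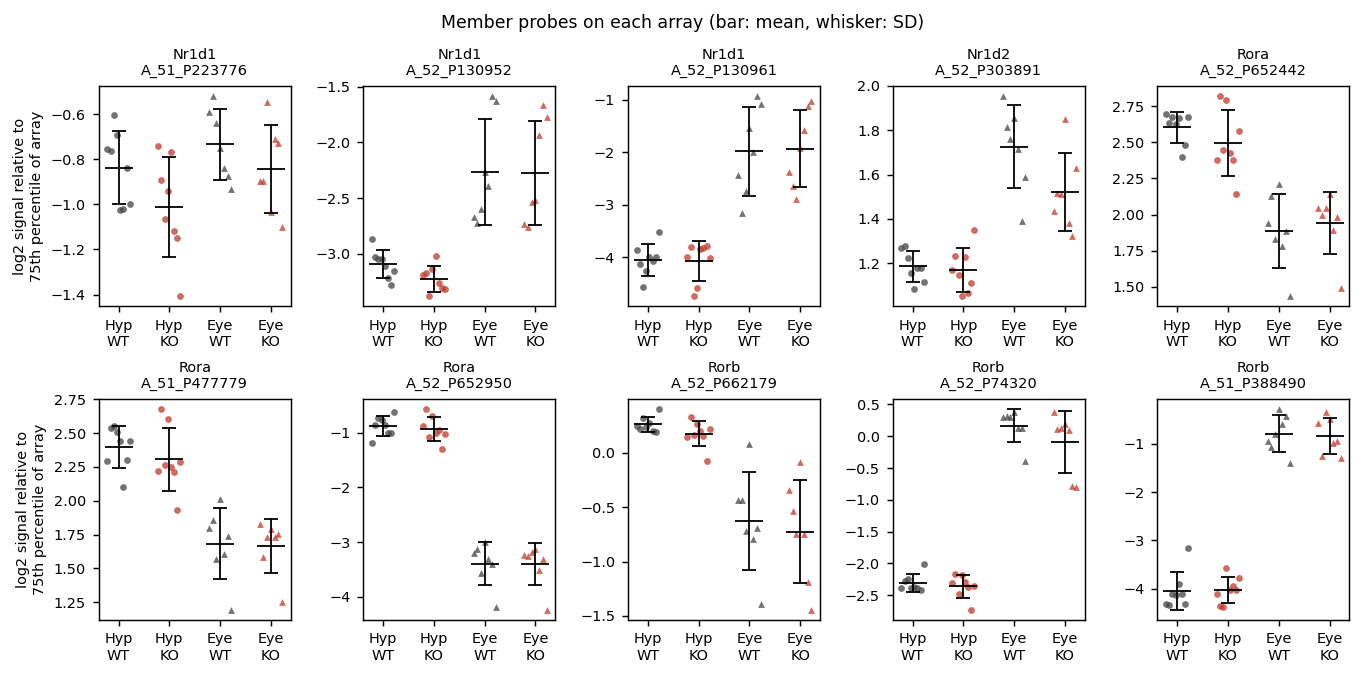
Log2 signal relative to the array's 75th percentile (vertical axis, a separate scale in each panel) of the 10 probes of Nr1d1, Nr1d2, Rora and Rorb, with 1 point per array, bars at the group mean and whiskers of 1 SD, for hypothalamus (Hyp, 8 and 8 mice) and eye (7 and 7 mice) of WT (grey) and knockout (KO, red) mice. WT and knockout points overlap in every panel, while the ranges of the tissues are fully apart for 5 of 10 probes, as they are for 48.9% of all probes.

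In the eye, 0 of 10 probes passed the same test, where 0.0194% of all probes did (8 probes), and adjusted p-values were 1.0. No probe had an unadjusted p under 0.05, against 1.8% of all probes. The knockout mean was lower at 8 of 10 probes (48.1% of all probes), with a median difference of -0.03 over the 10 and 0.00 over all probes.

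Nr1d2 had the difference nearest to the threshold in the eye. WT eyes read 1.39, 1.76 and 1.96 (lowest, median, highest) and knockout eyes 1.33, 1.51 and 1.85, so the median knockout eye lay low in the WT range, with overlap throughout. The difference was -0.20 (SE 0.099, n = 7 and 7), its 95% interval -0.42 to 0.01, and its exact permutation p 0.060, or 0.0648 within slides. The knockout mean was the lower on 4 of 4 slides. Slide 1 of the eye held only 1 WT and 1 knockout array and had the largest difference, -0.52. On slides 2, 3 and 4 the differences were -0.27, -0.17 and -0.01. Nr1d1 at A_51_P223776 read -0.93, -0.75 and -0.52 in WT and -1.10, -0.89 and -0.54 in knockout eyes, a difference of -0.11 (95% interval -0.32 to 0.10, exact permutation p 0.262), again with the lower knockout mean on 4 of 4 slides. There too slide 1, with 1 array of each genotype, had the largest difference, -0.31. The other Nr1d1 probes differed by -0.01 and 0.05, and the interval of the second, -0.81 to 0.90, left its direction undetermined.

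Rora differed by 0.06, -0.01 and -0.01 between genotypes in the eye. At A_52_P652442 WT eyes read 1.43, 1.88 and 2.21 and knockout eyes 1.49, 2.0 and 2.14. Rorb at A_52_P662179 read -1.39, -0.70 and 0.08 in WT and -1.44, -0.74 and -0.08 in knockout eyes, nearly the same range, with a difference of -0.10. Rorb at A_52_P74320 read -0.38, 0.30 and 0.38 in WT and -0.80, 0.12 and 0.39 in knockout eyes. That difference was -0.26 (95% interval -0.68 to 0.17), with an exact permutation p of 0.230 over all arrays and 0.0231 within slides, and the knockout mean was lower on 3 of 4 slides. Most of it came from slide 4, where the difference was -0.66, and without that slide it was -0.10.

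**Figure D2:**
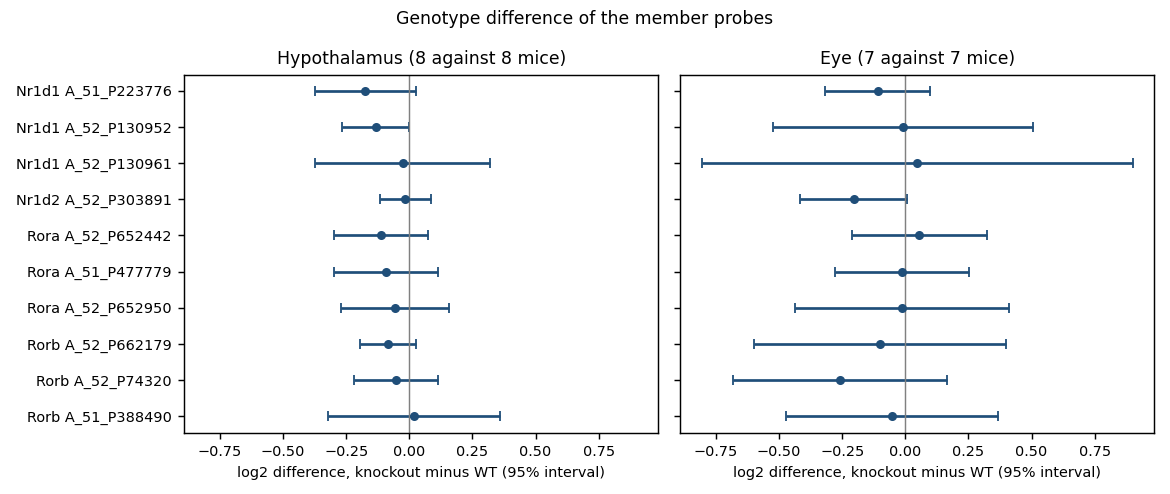
Log2 difference, knockout minus WT (horizontal axis), of each probe of Nr1d1, Nr1d2, Rora and Rorb in the hypothalamus (left, 8 against 8 mice) and the eye (right, 7 against 7 mice), with points at the estimate and whiskers for the 95% interval. The intervals are widest for A_52_P130961 in the eye, -0.81 to 0.90, and that of A_52_P130952 in the hypothalamus ends at -0.00, the others all crossing 0.

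The genotype difference was then compared between tissues in 1 fit of all 30 arrays that treated the mouse as a random block. None of the 10 probes was called (background 0.00486%, 2 probes). The largest of the reported probes was Nr1d2, whose knockout minus WT difference was lower in the eye than in the hypothalamus by 0.19 on the log2 scale (difference -0.19, SE 0.10, 95% interval -0.39 to 0.02, adjusted p 1.0).

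Between tissues the receptors differed far more than between genotypes, and probes of 1 gene often differed from each other. Eye and hypothalamus were compared in the same fit, and 9 of 10 probes were called, 5 higher and 4 lower in the eye. That share stands beside a background of 83.1% of all probes (47.9% higher and 35.2% lower in the eye), so being called is not particular to these genes. In such bulk samples fewer cells of a type and less RNA per cell cannot be told apart. The eye arrays were also hybridised and scanned in another run, so tissue and run cannot be told apart either. The median of all probes was 0.19 higher in the eye, but 0.07 lower on the log2 scale (-0.07) after quantile normalization and -0.03 after normexp, and values relative to that median are given where the direction depends on it.

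The REV-ERB genes were higher in the eye at 3 of 4 probes. Nr1d2 had its highest mean in WT eye (1.73 ± 0.19, SD, n = 7), then knockout eye (1.52 ± 0.18, n = 7), WT hypothalamus (1.19 ± 0.07, n = 8) and knockout hypothalamus (1.17 ± 0.10, n = 8). The step between the eye and hypothalamus groups exceeded their SDs, that between the eye genotypes was about 1 SD, and the hypothalamus genotypes lay within 1 SD of each other. The tissue difference was 0.45 (SE 0.050, adjusted p 2.6e-09), 1.36-fold, and the eye was higher in 14 of 14 mice with both tissues, though the ranges over all mice touched. Relative to the median of all probes it was 0.25, and 0.63 after quantile normalization.

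For Nr1d1 the tissue difference shrank along the transcript. The probe nearest the start, A_52_P130961, rose from -4.75 to -3.52 in the hypothalamus to -3.16 to -0.92 in the eye, without overlap, a difference of 2.11 (SE 0.20, adjusted p 9.2e-11, 4.31-fold). A_52_P130952 spanned -3.38 to -2.87 in hypothalamus and -2.76 to -1.58 in eye, also apart, and was higher by 0.89 (SE 0.12, adjusted p 5.5e-08, 1.85-fold). With normexp the difference was smaller, 1.35 at A_52_P130961 and 0.50 at A_52_P130952. At A_51_P223776, near the end of the coding part, 3 hypothalamus arrays lay below every eye array and 3 eye arrays above every hypothalamus array, the rest overlapping, and the difference was 0.14 (SE 0.066, 95% interval 0.00 to 0.27, adjusted p 0.0568), higher in 11 of 14 mice. With the mouse as a fixed block in a replicate block fit that difference was 0.16 with an adjusted p of 0.0155, and it was called. Relative to the median of all probes its direction depended on the scaling, at -0.06 with the 75th percentile, 0.08 with quantile normalization and 0.09 with normexp. The order of the groups at this probe was WT eye (-0.73 ± 0.16), WT hypothalamus (-0.84 ± 0.16) and knockout eye (-0.84 ± 0.20) at the same mean, and knockout hypothalamus (-1.01 ± 0.22), with no neighbours further apart than their SDs. Within mice the difference of A_51_P223776 fell below those of A_52_P130952 and A_52_P130961 by 0.74 and 1.95 on the log2 scale. Each gap had an exact sign-flip permutation p of 0.000122 over 14 mice, the smallest that test can give. That test treats the mice as independent and does not account for shared slides. After removing genotype, 90.9% and 95.4% of the eye spread of A_52_P130952 and A_52_P130961 lay between slides. The sign-flip tests of Rora and Rorb below also leave shared slides out of account.

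Rora was lower in the eye at all 3 probes. A_52_P652442 had its highest mean in WT hypothalamus (2.61 ± 0.11), then knockout hypothalamus (2.50 ± 0.23), knockout eye (1.94 ± 0.21) and WT eye (1.89 ± 0.25), and only the step between tissues exceeded the SDs of both neighbours. It fell by 0.64 on the log2 scale in the eye (difference -0.64, SE 0.073, adjusted p 3.6e-09), 1.56-fold lower, and its neighbour A_51_P477779, which ends at the stop codon, was lower by 0.68 (-0.68, SE 0.076, 1.60-fold). Those probes lie side by side, and within mice their tissue differences lay 0.03 apart (exact sign-flip permutation p 0.410). A_52_P652950, from another transcript model, spanned -1.29 to -0.57 in hypothalamus and -4.23 to -2.99 in eye. Its difference of -2.49 (SE 0.11, adjusted p 3.9e-19, 5.62-fold lower) exceeded that of A_52_P652442 by 1.84 ± 0.25 (SD over 14 mice, exact sign-flip permutation p 0.000122).

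Rorb went in opposite directions at different probes. A_52_P662179, the probe with the highest mean signal, was lower in the eye, with means of 0.26 ± 0.07 in WT and 0.17 ± 0.12 in knockout hypothalamus and -0.63 ± 0.45 in WT and -0.73 ± 0.47 in knockout eye. The SDs of the 2 eye groups exceeded their difference several times, while the tissue difference was -0.89 (SE 0.11, adjusted p 2.0e-08, 1.86-fold lower). A_52_P74320, in the coding part, was higher in the eye, spanning -2.73 to -2.01 in hypothalamus and -0.80 to 0.39 in eye, a difference of 2.37 (SE 0.10, adjusted p 3.1e-19, 5.17-fold). A_51_P388490, from a separate cDNA, was higher in the eye by 3.22 (SE 0.13, adjusted p 3.9e-20, 9.34-fold), from -4.38 to -3.15 in the hypothalamus to -1.40 to -0.28. In the same mice the tissue difference of A_52_P662179 was lower than that of A_52_P74320, with a gap of -3.27 ± 0.23 (SD over 14 mice, exact sign-flip permutation p 0.000122). The directions of Rora and Rorb at every probe were the same relative to the median of all probes under the 75th percentile, quantile and normexp scalings. The sizes were not. With normexp the differences were -0.91 for Rorb A_52_P662179, 1.96 for A_52_P74320 and 2.24 for A_51_P388490. Those of Rora were -0.50 at A_52_P652442, -0.58 at A_51_P477779 and -2.16 at A_52_P652950. Which transcripts each probe detects was not tested.

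**Figure D3:**
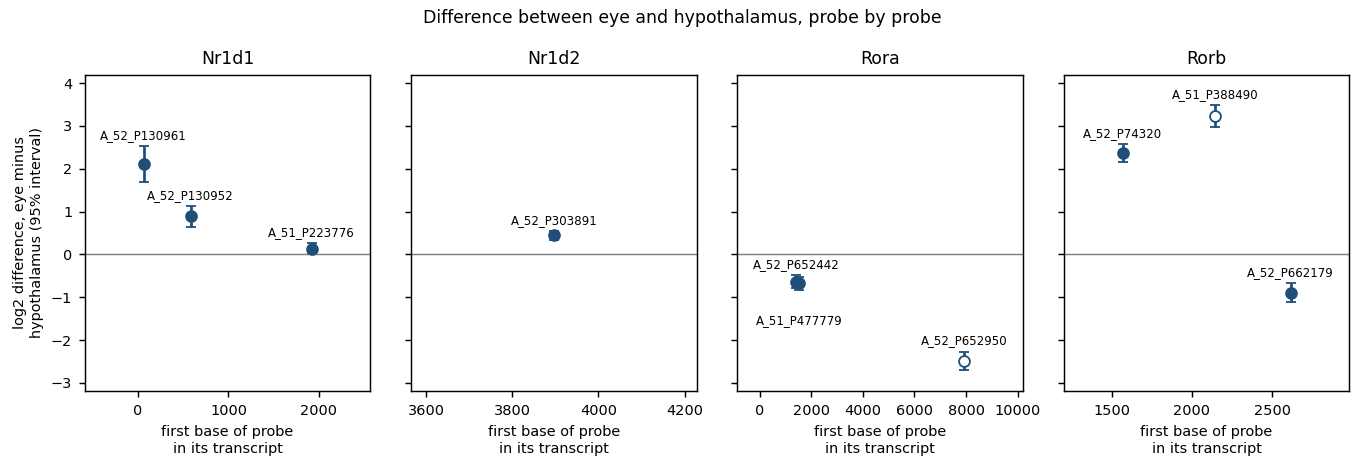
Log2 difference, eye minus hypothalamus (vertical axis), of each probe against the base of its transcript at which it begins (horizontal axis), with whiskers for the 95% interval and open circles for probes designed on another transcript model or cDNA. Nr1d1 goes from 2.11 near the start to 0.14 near the end of the coding part. Rorb goes from 2.37 at A_52_P74320 to -0.89 at A_52_P662179 along the same transcript. Its probe A_51_P388490, at 3.22, is placed by a base of a separate cDNA, so its order among them is not a position in the gene.

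Part of the spread within the eye followed the glass slide, which holds up to 4 arrays with both genotypes on each. Of the spread between eye arrays left after removing genotype, 95.4% lay between slides for Nr1d1 A_52_P130961 and 90.9% for A_52_P130952, against 39.2% for A_51_P223776 and a median of 33.9% over the 27884 probes well above background on all eye arrays (quartiles 19.3% and 52.3%). The slide means of A_52_P130961 were -2.40, -2.85, -1.76 and -1.03 on eye slides 1 to 4. Those of A_51_P223776 were -0.74, -0.65, -0.83 and -0.91, so the probes of 1 gene diverged between slides. Across the 14 eye arrays the 2 probes nearer the start had a Pearson r of 0.92 with each other and of -0.39 and -0.62 with A_51_P223776, as a description over arrays that share slides. In the hypothalamus A_51_P223776 and A_52_P130952 had an r of 0.63, and the share between slides was 76.4% for A_52_P130961.

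Slide 4 of the eye was also low for the RORs. Rorb A_52_P74320 had slide means of 0.35, 0.21, 0.20 and -0.46 and A_52_P662179 of -0.39, -0.61, -0.38 and -1.18, with 76.9% and 61.0% of their spread between slides, and Rora A_52_P652950 had means of -3.22, -3.28, -3.23 and -3.78. Nr1d2 had 29.1% of its spread between slides. Without slide 4, an alternative chosen after the data were seen, 10 of 10 probes were called between tissues, as were 32840 of all 41174 probes. The differences were then 0.18 for Nr1d1 A_51_P223776 (adjusted p 0.0249), 0.64 and 1.74 for its other probes, 0.50 for Nr1d2, -0.55, -0.60 and -2.34 for Rora, and -0.69, 2.57 and 3.31 for Rorb.

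**Figure D4:**
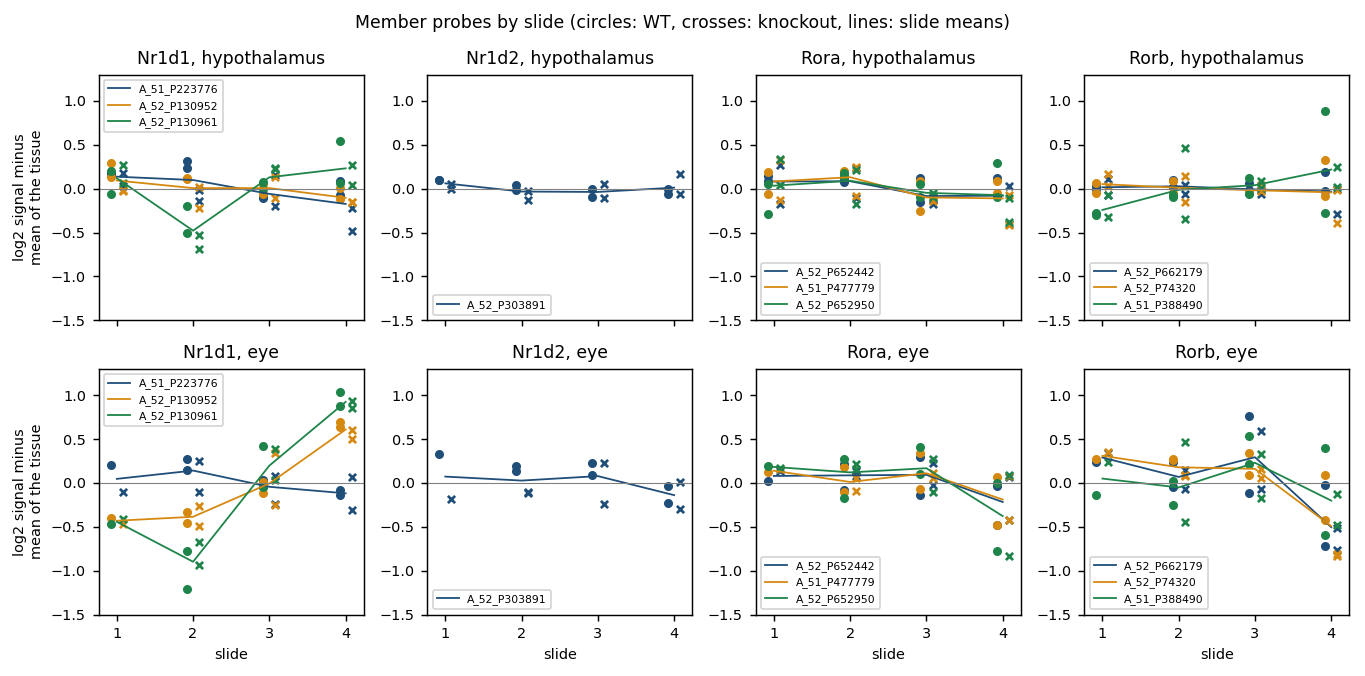
Log2 signal minus the mean of the tissue (vertical axis) of each probe on slides 1 to 4 (horizontal axis), for the hypothalamus (top) and the eye (bottom), with circles for WT mice, crosses for knockout mice and lines through the slide means. In the eye Nr1d1 A_52_P130952 and A_52_P130961 are highest on slide 4, where A_51_P223776 and all probes of Rora and Rorb have their lowest slide mean.

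Across mice, Rora and Rorb varied together in both tissues. Correlations of the reported probes with each other and with clock genes were computed on values centred on genotype, 84 relations in all, and 4 passed an adjusted p of 0.05. The permutations behind these p-values were within genotype and not within slide, so they do not account for shared slides. In the hypothalamus Rora and Rorb had a Pearson r of 0.85 over 16 mice (permutation p 6e-05, adjusted p 0.0025) and a Spearman rank correlation of 0.82 (adjusted p 0.0076). Without the 2 arrays farthest from the median of Rora r was 0.77, and on values centred within slides 0.91 (exact p 0.00781, the smallest possible there). Centring on slide and genotype leaves 2 arrays at a time that deviate equally in opposite directions. Such an r therefore rests on fewer free values than mice, and in the eye on 12 arrays only. In the eye r was 0.88 over 14 mice (permutation p 5e-05, adjusted p 0.0025) and the Spearman coefficient 0.88 (adjusted p 0.0076), with 0.75 without the 2 farthest arrays and 0.86 within slides (exact p 0.0625).

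The receptors were also set against markers of other cell types and tissues. In the hypothalamic block the mean level of the thalamus markers Tcf7l2, Prkcd, Tnnt1, Lef1 and Gbx2, 2.03 to 2.61 across mice, had an r of 0.64 with Rora (permutation p 0.0095, adjusted p 0.21 over 112 marker relations) and 0.74 with Rorb (permutation p 0.0015, adjusted p 0.14). Within slides r was 0.87 and 0.84, values that were not tested. Rora had an r of -0.62 with the photoreceptor markers in the hypothalamus (permutation p 0.0059, adjusted p 0.18) and of -0.71 with the hypothalamus markers in the eye (permutation p 0.0026, adjusted p 0.14). Nr1d2 had an r of 0.64 with the skeletal muscle markers in the hypothalamus (permutation p 0.0063, adjusted p 0.18). On all hypothalamus arrays 1 of the 6 photoreceptor and 3 of the 4 skeletal muscle markers were well above background. On all eye arrays 4 of the 8 hypothalamus markers were. The means of these 3 marker lists therefore rest in part on background signal. None of the 112 marker relations, which were added after the data were seen, passed an adjusted p of 0.05, and the part of thalamic tissue in the relation of Rora and Rorb was not tested.

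In the eye Nr1d2 had high correlations with Per2 and Cry1, core repressors of the clock, though neither exact test within slides was under 0.05. For Per2 r was 0.85 (permutation p 0.00041, adjusted p 0.011) and the Spearman coefficient 0.85 (adjusted p 0.012), with an r of 0.87 without the 2 farthest arrays and 0.98 within slides (exact p 0.0938). For Cry1 r was 0.82 (permutation p 0.0012, adjusted p 0.025), but the Spearman coefficient was 0.69 (adjusted p 0.12), with an r of 0.88 without the 2 farthest arrays and 0.96 within slides (exact p 0.0625). Exchanging mice within slide and genotype allows no p under 0.0312 in the eye. Nr1d1 and Nr1d2 had an r of 0.05 in the hypothalamus (0.55 without the 2 farthest arrays) and -0.01 in the eye (-0.68 within slides), with neither passing. By genotype their r was 0.64 in WT and -0.25 in knockout hypothalamus and 0.73 in WT and -0.63 in knockout eye, a contrast that was not tested. In the hypothalamus Nr1d1 and Dbp, a clock output factor, had an r of 0.68 (adjusted p 0.051) and a Spearman coefficient of 0.72 (adjusted p 0.045), and an r of 0.13 within slides. Nr1d1 and Cry1 had an r of -0.53 (adjusted p 0.19) and a Spearman coefficient of -0.75 (adjusted p 0.037), and an r of -0.21 within slides. Nr1d1 and Clock had an r of -0.72 (adjusted p 0.051), and -0.70 within slides.

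**Figure D5:**
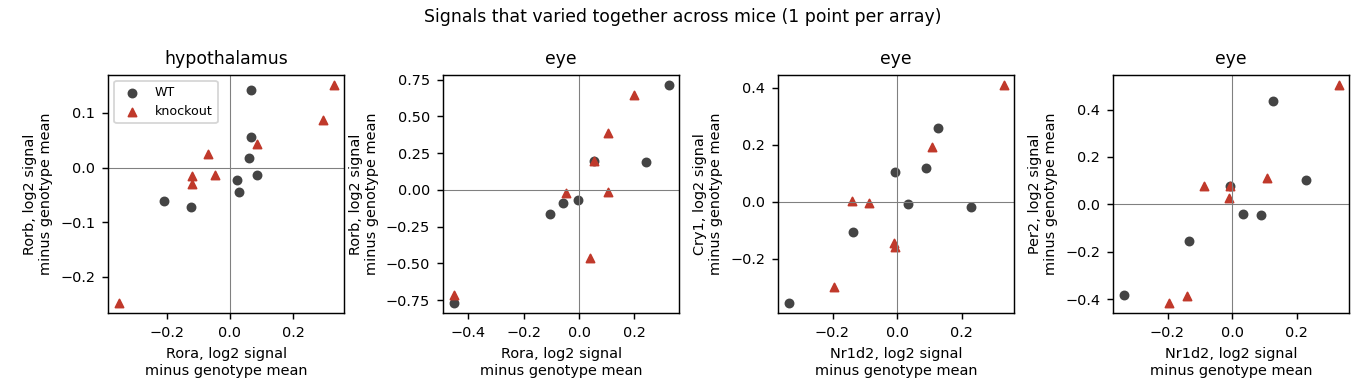
Log2 signal minus the mean of the genotype for the 4 pairs that passed an adjusted p of 0.05, with 1 point per array, grey circles for WT and red triangles for knockout mice, Rora (hypothalamus, eye) or Nr1d2 (eye) on the horizontal axis and Rorb, Cry1 or Per2 on the vertical axis. Points of both genotypes run from lower left to upper right, and in the Rora and Rorb panels 1 hypothalamus array and 2 eye arrays lie far at the lower left.

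The genes around the receptors were described from lists. Of 19 genes of REV-ERB and ROR cofactors, heme and turnover, 0 were called between genotypes in the hypothalamus or the eye (0.0413% and 0.0194% of all probes). In either tissue 0 had an unadjusted p under 0.05 (2.82% and 1.8% of all probes). The knockout mean was lower for 14 in the hypothalamus and 13 in the eye (56.1% and 48.1% of all probes). Between tissues 4 were called higher and 15 lower in the eye, where 47.9% of all probes were higher and 35.2% lower, with a median difference of -0.50. The largest were Gsk3b, a kinase that stabilises REV-ERBα, at -2.28 (SE 0.054), and the ubiquitin ligase genes Mycbp2 at -1.99 (SE 0.060) and Fbxw7 at -1.89 (SE 0.051), both known to turn REV-ERBα over.

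Of 12 genes with REV-ERB/ROR response elements, 0 were called between genotypes in the hypothalamus or the eye (0.0413% and 0.0194% of all probes). The knockout mean was lower for 2 in the hypothalamus (median 0.11) and 4 in the eye (median 0.04), beside 56.1% and 48.1% of all probes. Unadjusted p-values under 0.05, which 1.8% of all probes had in the eye, occurred there for Nfil3 and Fabp7. Nfil3, a repressor of D-box genes, differed by 0.23 (SE 0.096), and Fabp7, a fatty acid binding protein of glia, by -0.29 (SE 0.13), both at an adjusted p of 1.0. Between tissues 7 were called higher and 4 lower in the eye, beside the 47.9% and 35.2% of all probes, with a median of 0.60. The 3 largest differences were those of Fabp7 at -4.65 (SE 0.18), Lpl, lipoprotein lipase, at 4.18 (SE 0.18) and Th, tyrosine hydroxylase, at -4.14 (SE 0.17).

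Of 15 other clock genes, 0 were called between genotypes in either tissue. The knockout mean was lower for 13 in the hypothalamus (median -0.05) and for 15 of 15 in the eye (median -0.09). Dbp had an unadjusted p under 0.05 in both tissues, at -0.25 (SE 0.096, adjusted p 0.991) in the hypothalamus and -0.34 (SE 0.12, adjusted p 1.0) in the eye. Per3 itself differed by -0.51 (SE 0.089, adjusted p 0.067) in the hypothalamus and -0.45 (SE 0.23) in the eye. Between tissues 6 were called higher and 8 lower in the eye (47.9% and 35.2% of all probes, median -0.11), the largest being Fbxl21, a ligase subunit acting on cryptochromes, at -2.62 (SE 0.057), the casein kinase gene Csnk1e at -1.85 (SE 0.041) and Arntl2 at -1.39. Arntl2 was well above background on 1 of 14 eye arrays, so its value is set mostly by background signal in the eye.

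Of 10 retinal genes downstream of or beside RORA and RORB, 0 were called between genotypes in the hypothalamus or the eye (0.0413% and 0.0194% of all probes). Between tissues 9 were called higher and 0 lower in the eye (47.9% and 35.2% of all probes). One of the 9, Ptf1a, was well above background on 0 of 16 hypothalamus and 3 of 14 eye arrays and is given no fold. The median tissue difference was 6.88, or 5.88 with the bound in place of the value for the 3 genes at background throughout the hypothalamus. Nr2e3, the rod receptor that represses cone genes, was well above background on 0 of 16 hypothalamus arrays and was at least 2115-fold higher in the eye. Nrl, a transcription factor of rods, was higher by 10.56. Crx, a transcription factor of photoreceptors, had a measured difference of 11.10, which rests mostly on background signal, as it was well above background on 1 of 16 hypothalamus arrays. Rorb A_52_P74320 and A_51_P388490 had the direction of these genes between tissues, and Rorb A_52_P662179 and all 3 Rora probes had the opposite direction.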

How the data were processed

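RNA was extracted with the RNeasy kit and labelled with Cy3, and each sample was hybridised to 1 Agilent array without pooling. The authors extracted the spots with Feature Extraction 10.7.1.1, and the deposited intensity is linear, had background and spatial trend removed, and was not yet normalized between arrays. A table of log2 values by the authors, relative to each array's 75th percentile and centred per probe within a tissue, served as an alternative. Spot marks (well above background, outlier, saturated) were deposited with the intensities. The headers of the eye files name an older assembly and these files hold no gene names or positions.

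Here log2 of the processed intensity minus the array's 75th percentile was fitted per probe with limma 3.58.1 (statmod 1.5.0, R 4.3.3), adjusting by Benjamini-Hochberg over 41174 probes. Spots marked as outliers were left out. Tissues were compared over 30 arrays, the mouse being a random block (correlation 0.059), since the tissues share 14 mice. Exact permutation tests of single probes used 12870 arrangements in the hypothalamus and 3432 in the eye, or 1296 and 432 within slides. Correlations used 100000 permutations within genotype. The 9 comparisons between probes of 1 gene used exact sign flips over mice and were added after the data were seen. They do not account for shared slides. All tests were two-sided. Python 3.11.15, numpy 2.4.6, pandas 2.3.3, scipy 1.17.1 and matplotlib 3.10.9 were used, and the fits were tested on simulated data.

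The reported probe of a gene was that with the highest mean signal. A gene of a list was named where its unadjusted p was under 0.05 between genotypes or its tissue difference was among the 3 largest of its list. Members and lists were chosen with earlier results of these data known. Genes were named from the accession (26918 probes), symbol (5082) or synonym (817), and otherwise by the file (8357). The precision is limited by the number of arrays. Replicates were separate mice, spread over 4 slides per tissue. Replicate numbers were not taken to pair the genotypes, since not every pair of same-numbered mice deviated together: correlations were -0.20 to 0.40 in the hypothalamus (4 of 8 pairs over 0.1) and 0.00147 to 0.679 in the eye (5 of 6 pairs). Such mice shared a slide.

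The alternatives were quantile normalization, normexp (offset 50) with quantile normalization, only probes well above background, the replicate number or the slide as a block, the methods' t-test, the authors' log2 values, leaving out each replicate, and for the tissues no block or the mouse as a fixed block. Leaving out slide 4 of the eye and leaving out the arrays high in pituitary markers were added after the data were seen.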

Additional observations from a re-analysis of the deposited data

Results flagged for a closer look

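In 7 of the 40 groups of a probe, tissue and genotype, the highest or lowest array stood apart from the others by Dixon's criterion, where chance gives about 1 in 20 groups. Probes of 1 gene share arrays, so the 40 groups are not independent and 1 array can be counted several times. Of these 7 values, 6 came from replicate 8 of WT or knockout, different mice that lay on slide 4 in both tissues. In the knockout eye, replicate 8 was the lowest for Rora at all 3 probes, with 1.49 at A_52_P652442 (the nearest array at 1.89), 1.25 at A_51_P477779 (1.59) and -4.23 at A_52_P652950 (-3.51). In the WT eye, replicate 8 was the lowest for Rorb A_52_P74320 at -0.38 (0.12). In the WT hypothalamus, replicate 8 was the highest for Rorb A_52_P74320 at -2.01 (-2.24) and for Rorb A_51_P388490 at -3.15 (-3.91). In the knockout hypothalamus, replicate 7 was the lowest for Rorb A_52_P662179 at -0.073 (0.15).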

How the results depend on the processing

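No probe of the 4 genes was called between genotypes in the hypothalamus or the eye, or for the difference between tissues in the genotype effect, under any alternative run, so the count was 0 with the replicate block too. Between tissues 9 probes were called, and 9 to 10 when each replicate was left out. The count was 10 without knockout replicate 1 or 5, where Nr1d1 A_51_P223776 reached 0.15 and 0.17. It was also 10 with the mouse as a fixed block or without slide 4 of the eye. Of all 41174 probes, 34208 were called in the main fit, 33944 with the fixed block and 32840 without slide 4. Without knockout replicate 1 or 5 the calls over all probes were 33872 and 34116. Exact tests gave 1 probe under 0.05 in the hypothalamus over all arrangements and 2 probes over both tissues within slides. Covariation gave 4 relations, 8 after quantile normalization and 0 on values centred on slide and genotype, where the number of arrangements is small. That 0 cannot tell whether the relations hold. Exact p-values there cannot go below 0.00781 in the hypothalamus and 0.0312 in the eye, and they were adjusted over 84 relations. Small genotype differences changed sign: in the hypothalamus Rorb A_51_P388490 was -0.014 with normexp, and in the eye Nr1d1 A_52_P130952 was 0.00042 with the replicate block and 0.032 without slide 4, Rora A_52_P652950 0.0038 after quantile normalization and Rorb A_51_P388490 0.0091 without slide 4. The difference between tissues in the genotype effect of Rorb A_52_P662179 was 0.052 without slide 4. The tissue difference of Rorb was 2.37 and 3.22 at its other probes. Leaving out each replicate, values that crossed 0 were, for the hypothalamus, -0.10 to 0.069 (Nr1d1 A_52_P130961), -0.042 to 0.0011 (Nr1d2) and -0.045 to 0.15 (Rorb A_51_P388490), then for the eye between -0.11 and 0.11 and -0.15 and 0.22 (Nr1d1 A_52_P130952, A_52_P130961), -0.019 to 0.13, -0.094 to 0.057 and -0.14 to 0.13 (Rora A_52_P652442, A_51_P477779, A_52_P652950), -0.23 to 0.020 and -0.16 to 0.03 (Rorb A_52_P662179, A_51_P388490), and for the difference between tissues from -0.066 to 0.25 (Nr1d1 A_52_P130961), -0.011 to 0.14 and -0.12 to 0.17 (Rora A_51_P477779, A_52_P652950) and -0.16 to 0.11 and -0.30 to 0.040 (Rorb A_52_P662179, A_51_P388490). Differences that kept their sign but moved by over 1.5 times were those of Rora in the hypothalamus (-0.16 to -0.061, -0.14 to -0.039 and -0.11 to -0.0044), Rorb A_52_P662179 and A_52_P74320 there (-0.11 to -0.050 and -0.080 to -0.00025), Nr1d1 A_51_P223776 and Rorb A_52_P74320 in the eye (-0.16 to -0.067 and -0.35 to -0.14), and, between tissues, Nr1d1 A_51_P223776 and A_52_P130952 (0.026 to 0.13 and 0.0098 to 0.26), Rora A_52_P652442 (0.080 to 0.25) and Rorb A_52_P74320 (-0.34 to -0.088). Over all probes the replicate block took the calls from 17 to 5 (hypothalamus) and from 8 to 1 (eye), leaving out slide 4 took the eye to 1, and for the difference between tissues from 2 to 1 (quantile), 6 (normexp) and 0 (mouse as a fixed block). Of the probes called between tissues, 57.6% were higher in the eye, 46.4% after quantile normalization and 47.2% with normexp. The cause was not tested.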

Other observations

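The genes whose signal across mice was most like that of each receptor's reported probe were ranked by Pearson r of values centred on genotype. The ranking was among 27148 probes over 16 hypothalamus arrays and 27881 over 14 eye arrays (27150 and 27883 for Nr1d2). It is a description of arrays that share slides. In the hypothalamus Nr1d1 was closest to Ric3 (0.92), Smcr8 (0.91) and Faf1 (0.91) and most opposed to Il11ra1 (-0.91), Sbno1 (-0.90) and Memo1 (-0.88). Nr1d2 was closest to Kcnn2 (0.89), Arfrp1 (0.88) and Vps16 (0.87) and most opposed to Efs (-0.93), Atrx (-0.86) and Srebf1 (-0.85). Rora and Rorb shared Kcnj9 (0.97 and 0.90), a potassium channel gene, and Clmn (0.90 and 0.86) among their closest 3, with Plcb4 (0.90) for Rora and Hspa12a (0.91) for Rorb. The most opposed were Zc3h4 (-0.93) and Cchcr1 (-0.87) for Rora and Svil, Sephs1 and Fmo1 (each -0.87) for Rorb.

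In the eye Nr1d1 was closest to Cplx2 (0.90), Lrrc4b (0.88) and H13 (0.86) and most opposed to Tmem100 (-0.94), Larp1b (-0.92) and Eif4e2 (-0.92). This holds for A_51_P223776 only, which had an r of -0.39 and -0.62 with the other Nr1d1 probes in the eye. Nr1d2 was closest to Mbd2 (0.95), Hnrnpk (0.94) and Sec61a1 (0.94) and most opposed to Chpf2 (-0.95), Calr (-0.93) and Klra15 (-0.92). Rora was closest to Scn3a (0.95), Tnks (0.95) and Mef2a (0.94), and Rorb to Mib1 (0.95), AK048431 (0.94) and Efr3a (0.94). Apex2 was among the 3 most opposed for both (-0.92 for Rora and -0.93 for Rorb), beside Mgst3 and Glrx5 (each -0.92) for Rora and Def8 (-0.93) and Dusp19 (-0.92) for Rorb.

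The level of a probe in the eye was also set against its level in the hypothalamus of the same mouse, over 14 mice and 10 probes. None passed an adjusted p of 0.05, and the highest r was that of Nr1d1 A_52_P130961 at 0.70 (permutation p 0.0063, adjusted p 0.063), with 0.43 for Nr1d1 A_51_P223776 and 0.43 for Nr1d2. Mice of 1 replicate number lay on the slide of the same position in both tissues.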
